A study of Mus musculus with 10 samples.

Results

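Ephrins and Eph receptors were represented by 5 genes in the array table of sorted mouse mammary cells. They were taken as the probe sets whose only gene symbol belongs to the mouse ephrin-A, ephrin-B, EphA or EphB families. Of 22 family genes searched for, 2 ligand genes (Efna3 and Efnb2) and 3 receptor genes (Epha4, Ephb1 and Ephb4) were in the table, among 2560 named genes. They were measured by 10 of the 3663 probe sets. The other 17 family genes were not analysed here. The rule used names alone, but each probe set of the table already spanned 4.0-fold or more from its lowest to its highest array, so the 5 genes had to vary and the count of genes present says nothing of the family as a whole.

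The arrays came from virgin FVB females of 6 to 8 weeks, and 5 cell populations sorted by surface protein had 2 arrays each. The basal populations were Thy-1+CD24medCD49fhigh (named stem cells in the series design), Thy-1-CD24medCD49fhigh (progenitors) and CD24medCD49fmed (myoepithelial cells), with 6 arrays. The luminal populations were CD24highCD49fmed (luminal progenitors) and CD24medCD49f-/low (differentiated luminal cells), with 4 arrays. The gates used CD24 and integrin α6 (CD49f), which part the basal from the luminal epithelium, and the glycoprotein Thy-1. No allele or treatment was given to any group. All populations had been depleted of cells carrying CD45, CD31 or Ter119, which mark blood and endothelial cells, and the methods add CD140α. For the third basal population the text of the study writes CD24lowCD49fmed, and the name in the labels is used here. Neither source says whether replicate arrays stand for separate animals, so the p-values rest only on the spread among these arrays, which may be technical. Below, Thy-1+ and Thy-1- stand for the parts of the CD24medCD49fhigh gate.

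Eph receptors are receptor tyrosine kinases whose ligands, the ephrins, are themselves held on cell surfaces, so that signalling needs contact between neighbouring cells. Ephrin-A proteins are tied to the membrane by a lipid anchor, whereas ephrin-B proteins cross it and end in a cytoplasmic tail that binds PDZ domain proteins. Signals run forward into the receptor cell and in reverse into the ligand cell, and the system is known for keeping cell compartments apart and for guiding axons and vessels. In the mouse mammary gland, EphB4 and ephrin-B2 have been studied in the growth and architecture of the epithelium.

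Values were centred log2 intensities, centred by the authors to average 0 for each probe set. A value of 1 is therefore a signal 2 times that mean, and only differences between arrays can be read, not how much RNA of a gene was present. Over whole arrays, values ran from -4.54 to 3.79, and array medians lay between -0.43 and 0.17. Fewer cells of a type and less RNA per cell cannot be told apart in such bulk samples. All 10 basal markers in the table (Krt14 and Acta2 among them) were higher in basal cells, with a median difference of 3.50. Of 12 luminal markers in the table (of 14 listed), 10 were called lower in basal cells (adjusted p under 0.05). The 2 not called, Krt19 (-0.63) and Cldn4 (-0.77), were also lower, and the median difference of the 12 was -2.13. The array medians of the luminal markers were 0.58 to 1.68 in luminal arrays. Among basal arrays these medians ran from -1.86 to 0.07, with the highest in Thy-1+ replicate 2.

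The genes with the clearest basal and luminal contrast, described below, were Efnb2, Epha4 and Ephb1, and the sequence just upstream of each is shown because these 3 had the largest differences. The sequences are from RefSeq on GRCm38.p6, all on the minus strand, and end at the base before the annotated start of the gene. Capitals mark letters matching, on either strand, a CCAAT box (CCAAT), a GC box (GGGCGG), a TEAD site (GGAATG) or an RBPJ site (TGGGAA).
Efnb2, chr8:8661243-8661492: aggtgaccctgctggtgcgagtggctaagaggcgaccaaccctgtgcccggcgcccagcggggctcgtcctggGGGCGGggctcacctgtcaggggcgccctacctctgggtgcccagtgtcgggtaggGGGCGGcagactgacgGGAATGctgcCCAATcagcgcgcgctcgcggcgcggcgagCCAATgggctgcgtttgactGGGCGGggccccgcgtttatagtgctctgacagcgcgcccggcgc
Epha4, chr1:77515108-77515338: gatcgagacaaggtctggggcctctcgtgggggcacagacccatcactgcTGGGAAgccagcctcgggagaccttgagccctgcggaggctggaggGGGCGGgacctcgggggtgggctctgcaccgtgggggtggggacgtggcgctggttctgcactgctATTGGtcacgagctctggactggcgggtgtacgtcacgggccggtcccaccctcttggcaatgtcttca
Ephb1, chr9:102354694-102354943: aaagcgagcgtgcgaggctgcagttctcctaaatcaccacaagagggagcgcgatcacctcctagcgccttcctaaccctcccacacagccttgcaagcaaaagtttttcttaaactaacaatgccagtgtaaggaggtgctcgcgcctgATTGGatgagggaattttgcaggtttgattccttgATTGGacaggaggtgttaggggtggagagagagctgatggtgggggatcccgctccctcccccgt
The Efnb2 and Epha4 sequences were rich in G and C (72% and 67.1%), against 54% for Ephb1. CCAAT boxes matched 2 times upstream of Efnb2, 1 time upstream of Epha4 and 2 times upstream of Ephb1. This motif was found in 33.8% of 32851 RefSeq promoter windows, searched over the bases before the start. GC boxes, in 32.7% of windows, matched 3 times in Efnb2 and 1 time in Epha4. The TEAD site of Efnb2 belongs to a motif in 12.6% of windows, and the RBPJ site of Epha4 to one in 21.6%. No AP-1 site (TGANTCA, 6.75% of windows) or CArG box (1.47%) lay in the 3 sequences. These are matches of letters and were not tested as binding sites.

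Of the 5 genes, 4 were called higher in basal than in luminal cells. Ephb1 showed the largest difference, 2.61 on the log2 scale or 6.09-fold, followed by Epha4 (3.81-fold), Efnb2 (2.67-fold) and Efna3 (1.81-fold), while Ephb4 did not pass the test. The calls thus took in both ligand genes and 2 of the 3 receptor genes. They were made at an adjusted p under 0.05 over all 2932 features tested, and for the same 4 genes the basal and luminal arrays did not overlap. Of all features, 76.0% were called in this comparison and 34.7% were called higher in basal cells. Features with higher and non-overlapping basal arrays made up 25.2%. The median difference of the 5 genes was 1.42, beside -0.11 over all features.

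Among the receptors, Ephb1 encodes a receptor of ephrin-B ligands. Its values were 1.63 and 0.16 in Thy-1+, 1.36 and 0.87 in Thy-1- and 1.68 and 0.55 in CD24medCD49fmed arrays, against -2.30 and -2.04 in CD24highCD49fmed and -1.21 and -0.71 in CD24medCD49f-/low. The lowest basal array was thus above the highest luminal one, and both CD24highCD49fmed arrays were the lowest of the 10. Ephb1 differed by 2.61 ± 0.37 (SE; 95% interval 1.84 to 3.37; limma adjusted p = 6.09e-06), and 95.1% of features had a smaller signed difference.

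Epha4 encodes a receptor that binds ephrins of both classes, which sets it apart from most of the family. It stood at 1.20 and 0.04 in Thy-1+, 0.45 and 1.08 in Thy-1- and 0.96 and 0.90 in CD24medCD49fmed cells, against -1.04 and -0.79 in CD24highCD49fmed and -2.00 and -0.81 in CD24medCD49f-/low cells. All basal arrays were above 0 and all luminal arrays below it, although Thy-1+ replicate 2 lay close to 0. The difference was 1.93 ± 0.36 (SE; 95% interval 1.19 to 2.67; adjusted p = 1.17e-04).

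Ephb4, whose product binds ephrin-B2 in preference to other ephrins, behaved differently from array to array. Its values were 0.86 and 0.10 in Thy-1+, 0.20 and -0.07 in Thy-1- and -0.20 and 0.99 in CD24medCD49fmed, against -0.81 and -0.41 in CD24highCD49fmed and -1.01 and 0.35 in CD24medCD49f-/low. CD24medCD49f-/low replicate 2 lay above 4 of the 6 basal arrays, so the groups overlapped. The difference of 0.79 ± 0.37 (SE) had a 95% interval of 0.02 to 1.55 and missed the threshold (adjusted p = 0.0578). The call turned on single arrays: without CD24medCD49f-/low replicate 2 the difference was 1.13 (adjusted p = 0.00502), and without CD24medCD49fmed replicate 2 it was 0.98 (adjusted p = 0.0295).

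Among the ligands, Efnb2 encodes ephrin-B2. It gave 1.35 and 0.27 in Thy-1+, 0.16 and 0.41 in Thy-1- and 0.60 and 0.61 in CD24medCD49fmed cells, against -0.75 and -1.13 in CD24highCD49fmed and -0.95 and -0.58 in CD24medCD49f-/low cells. The 4 luminal arrays lay close together, and the basal ones were spread mainly by the first Thy-1+ array. Efnb2 differed by 1.42 ± 0.33 (SE; 95% interval 0.73 to 2.11; adjusted p = 0.00102).

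Efna3 encodes ephrin-A3, a ligand of EphA receptors that include EphA4. Its values were 1.24 and 0.01 in Thy-1+, 0.37 and 0.30 in Thy-1- and 0.07 and 0.07 in CD24medCD49fmed, against -0.86 and -0.55 in CD24highCD49fmed and -0.36 and -0.30 in CD24medCD49f-/low. The groups did not overlap, but 3 basal arrays lay within 0.1 of 0. The difference of 0.86 ± 0.34 (SE; 95% interval 0.16 to 1.55) was called at an adjusted p of 0.0259. It was no longer called without Thy-1+ replicate 1 (0.65, adjusted p = 0.0658), CD24highCD49fmed replicate 1 (0.78, adjusted p = 0.111), CD24highCD49fmed replicate 2 (0.93, adjusted p = 0.0554) or CD24medCD49fmed replicate 3 (0.86, adjusted p = 0.0505), nor after quantile normalisation (0.66, adjusted p = 0.0595).

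**Figure D1:**
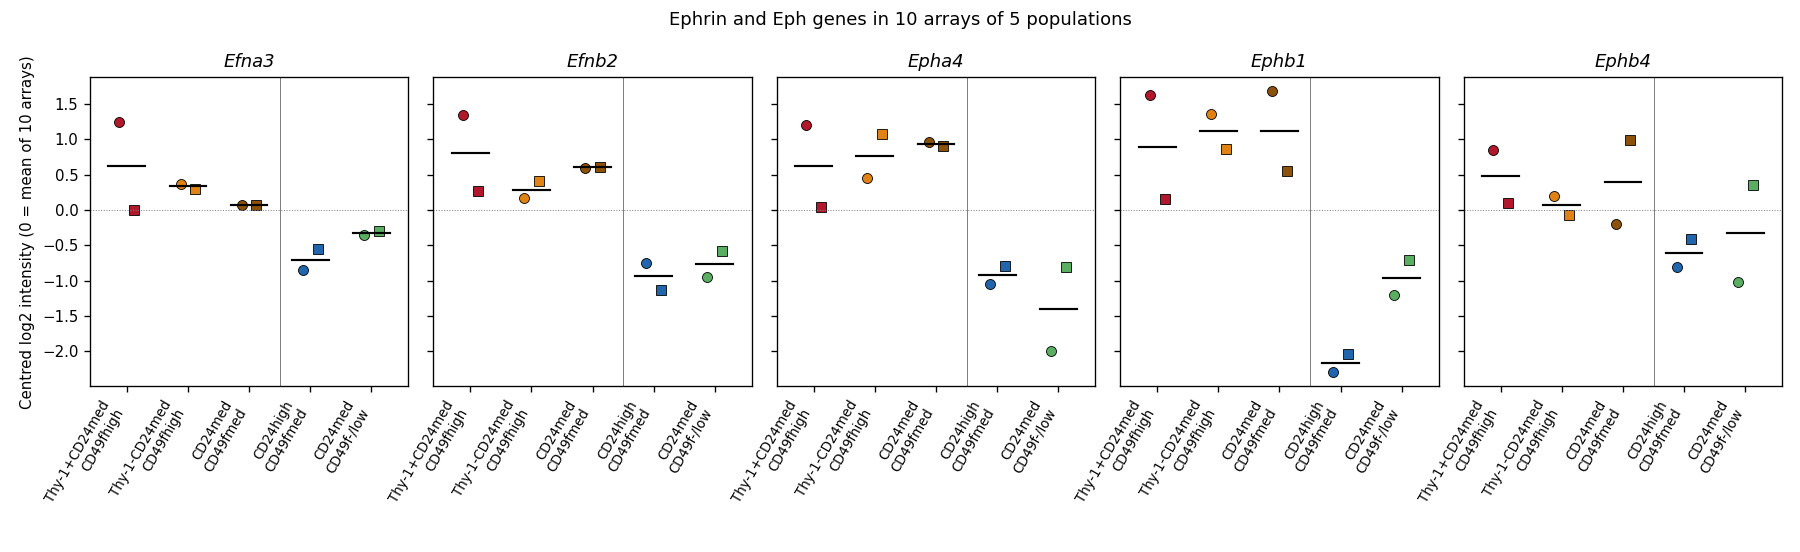
Centred log2 value (vertical axis) of each ephrin and Eph gene in each of the 10 arrays, by population (horizontal axis). The circle is the lower and the square the higher replicate number, and the bar is the mean of 2 arrays. Basal and luminal arrays are separate for Efna3, Efnb2, Epha4 and Ephb1 and overlap for Ephb4.

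Markers of other cell types moved in the same comparison. All 5 fibroblast markers in the table (of 8 listed) were higher in basal cells, with a median difference of 1.82, and array medians ran from -0.23 to 2.01 in basal and from -1.30 to -0.90 in luminal arrays. Of 6 pericyte markers in the table (of 7), 4 were called higher. Array medians of the 6 were -0.18 to 1.10 in basal and -0.97 to -0.20 in luminal arrays. Of 5 Schwann cell markers (of 8), 4 were higher and 1, Erbb3, was lower. None of 8 endothelial markers was in the table and 1 each of 6 leukocyte and erythroid markers was, Lcp1 (-1.76) and Hba-a2 (1.73). The centred values do not show whether any marker was near background. Their part in the results was not tested.

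Replicates of Thy-1+ were far apart for these genes, with a median absolute difference of 1.16 over the 5 genes, beside a mean of 0.651 over all features. In each of the other 4 populations the median over the 5 genes was below the mean over all features. A median and a mean are unlike measures, however. Single genes differed by up to 1.19 in CD24medCD49fmed (mean over all features 0.532) and 1.36 in CD24medCD49f-/low (mean 0.945). Over all probe sets the SD was 0.94 in Thy-1+ replicate 1 and 0.51, the lowest of all arrays, in Thy-1+ replicate 2. The medians of the basal markers in these arrays were 2.02 and 0.94. Thy-1+ replicate 1 was the highest of all arrays for Efna3, Efnb2 and Epha4, and above its partner for all 5 genes. With that array and CD24medCD49f-/low replicate 1 left out together, Efnb2 (1.15), Epha4 (1.44) and Ephb1 (2.24) were still called higher in basal cells. Efna3 was 0.64 (adjusted p = 0.0589) and Ephb4 0.32 (adjusted p = 0.423).

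The probe sets of a gene were compared where there was more than 1, and all agreed in direction between basal and luminal cells. The 4 Efnb2 probe sets differed by 0.98 to 1.88, with the highest value for 1419639_at (adjusted p = 1.40e-04) and the lowest for 1449549_at (adjusted p = 0.0128). For 1449549_at alone the arrays overlapped, at -0.02 in 1 CD24medCD49fmed array against 0.01 in 1 CD24medCD49f-/low array. The 3 Epha4 probe sets differed by 1.66 for 1421929_at, 1.87 for 1439757_s_at and 2.26 for 1429021_at. Tested alone, 9 of the 10 probe sets were called, beside 78.7% of all 3663, and the exception was the Ephb4 probe set (adjusted p = 0.0566).

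Between the luminal populations the same probe sets disagreed. Efnb2 probe set 1419639_at gave -0.36 and -0.91 in CD24highCD49fmed arrays, against -1.90 and -1.35 in CD24medCD49f-/low arrays, a difference of 0.99. Probe set 1449549_at gave -1.01 and -0.99 in CD24highCD49fmed arrays, against -0.36 and 0.01 in CD24medCD49f-/low arrays, a difference of -0.83. The arrays did not overlap for either probe set, yet the differences had opposite signs. Among all features, 37.6% had higher and 14.2% lower values in CD24highCD49fmed without overlap. For Epha4 the differences were 1.11, 0.51 and -0.15. No member probe set was called in this comparison, beside 0.300% of all probe sets, so the luminal differences of Efnb2 and Epha4 depended on the probe set and had no settled direction.

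**Figure D2:**
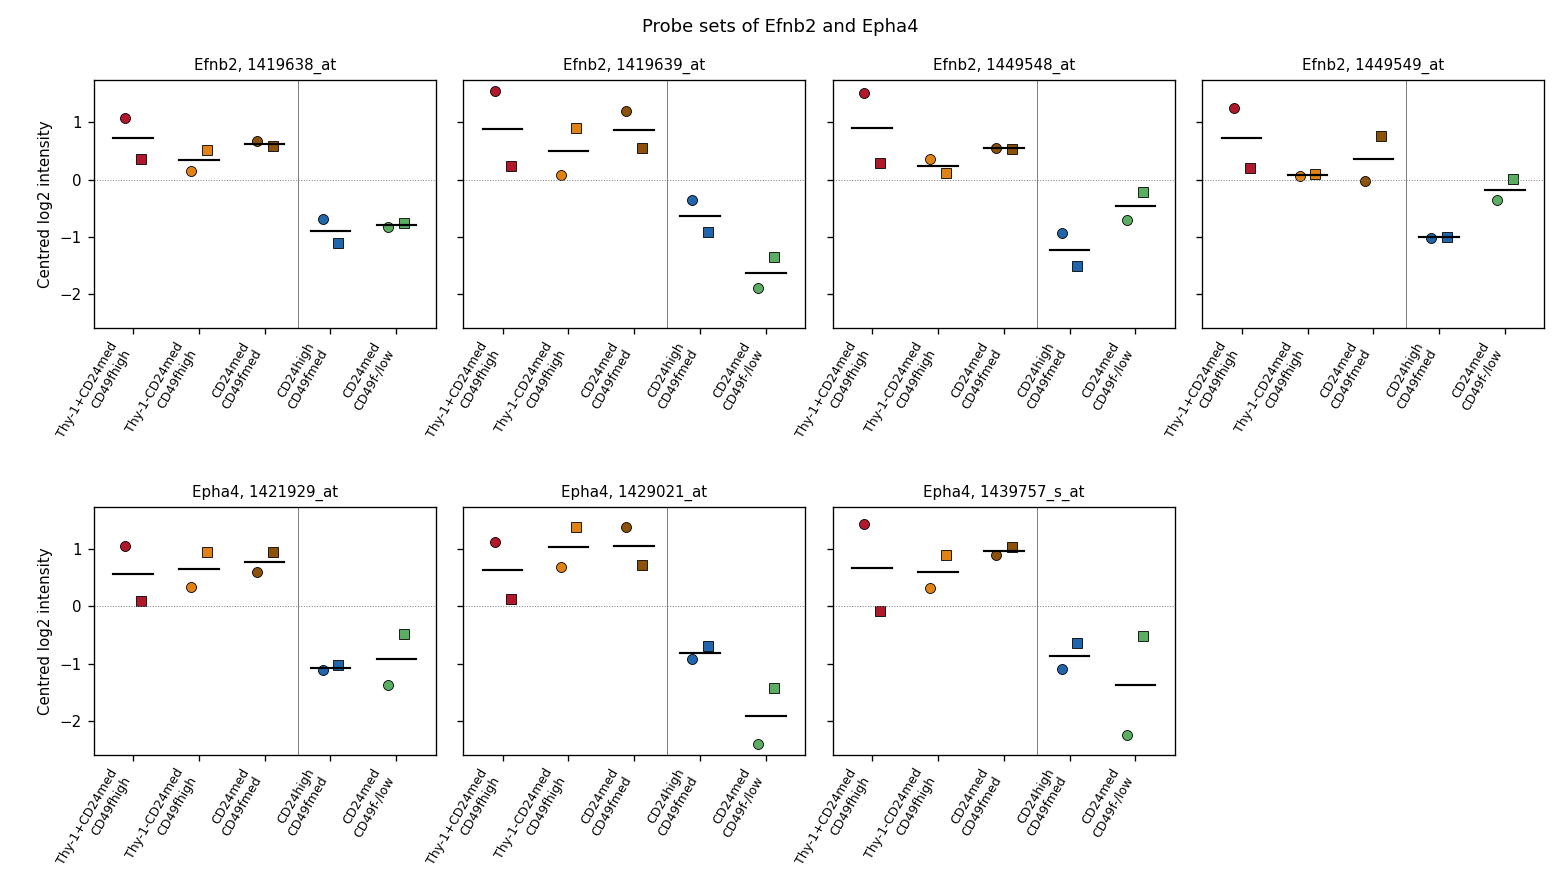
Centred log2 intensity (vertical axis) of the 4 Efnb2 and 3 Epha4 probe sets in each of the 10 arrays, by population (horizontal axis), with circle, square and bar as in the plot of gene values. Basal arrays lie above luminal ones in every panel but 1449549_at, while the order of the luminal populations differs between probe sets of the same gene.

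Within the luminal compartment, CD24highCD49fmed cells were compared with CD24medCD49f-/low cells, the populations that the series design names as progenitors and differentiated cells. None of the 5 genes was called, beside 0.205% of all features, and 1 had an unadjusted p under 0.05. This was Ephb1, at -2.30 and -2.04 in CD24highCD49fmed arrays against -1.21 and -0.71 in CD24medCD49f-/low arrays. The arrays did not overlap, and Ephb1 differed by -1.21 ± 0.57 (SE; 95% interval -2.39 to -0.03; limma adjusted p = 0.305). An unadjusted p under 0.05 was reached by 15.4% of all features.

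The size of the Ephb1 difference was set beside the rest of the table, because the arrays differed in their medians. The median over all features was 0.345 in this comparison, and 2.22% of features had a lower value than Ephb1. With array medians set to 0 that median became -0.03 and the Ephb1 difference -1.59 (adjusted p = 0.233), and after quantile normalisation Ephb1 was -0.91 (adjusted p = 0.924). Efna3 also had non-overlapping arrays, lower in CD24highCD49fmed, with a difference of -0.38 ± 0.52 (SE; 95% interval -1.45 to 0.70). Lower, non-overlapping values were found for 14.2% of all features. The other differences were -0.18 ± 0.52 for Efnb2, 0.49 ± 0.55 for Epha4 and -0.28 ± 0.57 for Ephb4.

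Whether Thy-1 separated cells of the CD24medCD49fhigh gate was the question of the study. None of the 5 genes was called between Thy-1+ and Thy-1- cells, beside 0.0682% of all features (2 of 2932), and none had an unadjusted p under 0.05, beside 2.52%. Efnb2 had the largest difference, 0.52 ± 0.52 (SE; 95% interval -0.55 to 1.59), and Ephb4 followed with 0.41 ± 0.57 (95% interval -0.77 to 1.60). Efna3 differed by 0.29 ± 0.52, Epha4 by -0.14 ± 0.55 and Ephb1 by -0.22 ± 0.57. The arrays overlapped for all 5 genes. Of all features, 17.3% were higher and 5.22% lower in Thy-1+ without overlap. The median over all features was 0.15 in this comparison, and -0.02 with array medians set to 0. The intervals allow differences of more than 2-fold either way for Epha4, whose interval ran from -1.29 to 1.01.

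The signs of these differences, except that of Ephb4, depended on single arrays. Without Thy-1+ replicate 1, Efna3 was -0.33 and Efnb2 -0.01, whereas without Thy-1+ replicate 2, Epha4 was 0.44 and Ephb1 0.51. Ephb1 was 0.029 without Thy-1- replicate 1, and Epha4 was 0.18 without Thy-1- replicate 2. In the same comparison the fibroblast markers had a median difference of 1.83, with array medians of 2.01 and 1.14 in Thy-1+ against -0.23 and -0.15 in Thy-1- cells, and 1 of 5 was called. The pericyte markers had array medians of 0.97 and 1.10 in Thy-1+, against 0.00 and -0.18 in Thy-1- cells, with none of 6 called. The Schwann cell markers had a median difference of 0.71, with array medians of 0.97 and 0.99 in Thy-1+ against -0.03 and 0.12 in Thy-1- cells. All 5 had positive differences, the highest that of Cdh19 (2.39, adjusted p = 0.104), and none was called. Their part in the values was not tested.

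CD24medCD49fmed cells were set against the mean of the Thy-1+ and Thy-1- populations. None of the 5 genes was called, beside 0.0341% of all features (1 of 2932), and none had an unadjusted p under 0.05, beside 1.77%. The differences were -0.41 ± 0.45 (SE) for Efna3, 0.05 ± 0.45 for Efnb2, 0.24 ± 0.48 for Epha4, 0.11 ± 0.49 for Ephb1 and 0.13 ± 0.49 for Ephb4. For Efnb2 the sign changed with array medians set to 0, and for Efnb2 and Ephb1 it changed under quantile normalisation. Markers of other cell types had median differences of 0.18 (fibroblast), -0.29 (pericyte) and 0.09 (Schwann cell), and none was called. The highest among them was that of Mbp, a Schwann cell marker (1.71, adjusted p = 0.403). Their part in these values was not tested.

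**Figure D3:**
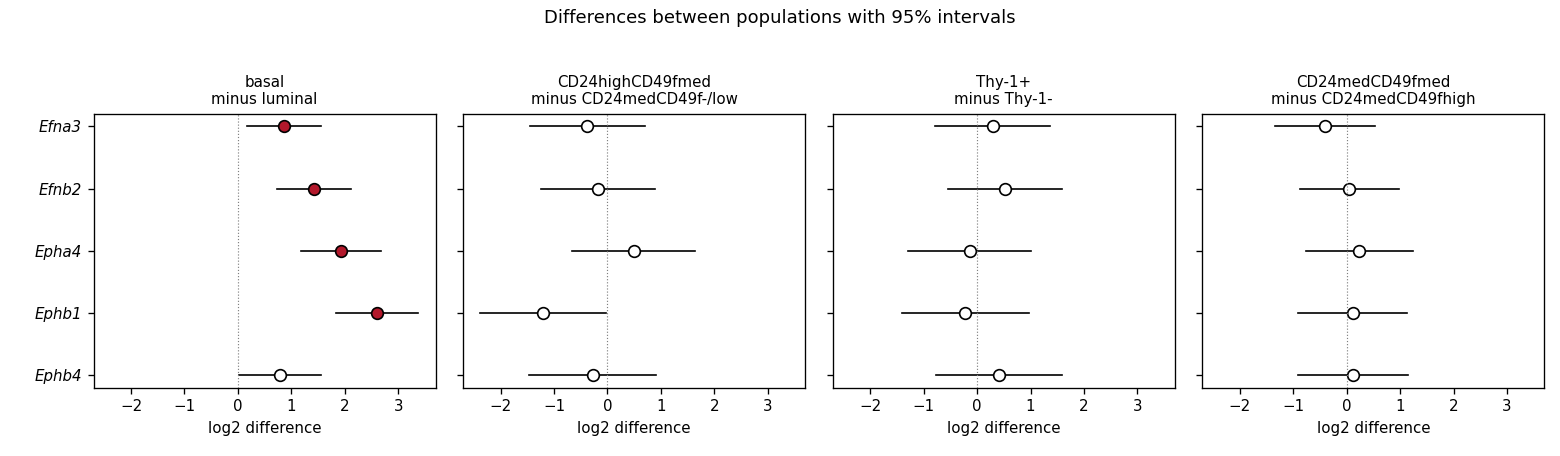
Log2 difference (horizontal axis) of each gene in the 4 comparisons, with 95% intervals from the fit over 10 arrays. Filled red points were called at an adjusted p under 0.05, and these are Efna3, Efnb2, Epha4 and Ephb1 between basal and luminal cells. All other intervals include 0 except those of Ephb4 between basal and luminal cells (0.02 to 1.55) and of Ephb1 between the luminal populations (-2.39 to -0.03).

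The order of the population means was basal above luminal for every gene, with Thy-1+ or CD24medCD49fmed at the top. Ephb1 ran from 1.12 in CD24medCD49fmed and 1.12 in Thy-1- through 0.90 in Thy-1+ and -0.96 in CD24medCD49f-/low down to -2.17 in CD24highCD49fmed. Epha4 had 0.93 in CD24medCD49fmed, 0.76 in Thy-1- and 0.62 in Thy-1+, then -0.91 in CD24highCD49fmed and -1.40 in CD24medCD49f-/low. Epha4 was thus the 1 gene whose lowest mean was in CD24medCD49f-/low rather than CD24highCD49fmed. That order reversed without CD24medCD49f-/low replicate 1 and for probe set 1421929_at. The differences, CD24highCD49fmed minus CD24medCD49f-/low, were then -0.11 and -0.15. Efnb2 had 0.81 in Thy-1+, 0.60 in CD24medCD49fmed, 0.29 in Thy-1-, -0.76 in CD24medCD49f-/low and -0.94 in CD24highCD49fmed. Efna3 had 0.62 in Thy-1+, 0.33 in Thy-1-, 0.07 in CD24medCD49fmed, -0.33 in CD24medCD49f-/low and -0.70 in CD24highCD49fmed. Ephb4 had 0.48 in Thy-1+, 0.40 in CD24medCD49fmed, 0.07 in Thy-1-, -0.33 in CD24medCD49f-/low and -0.61 in CD24highCD49fmed. Other scalings moved places among the basal populations only, and put Thy-1- on top for Ephb1 with array medians set to 0 and for Efna3, Epha4 and Ephb1 after quantile normalisation.

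No difference between neighbours within a compartment was called. Between the luminal populations the arrays of Ephb1 and Efna3 did not overlap, as given above. Nor did those of Efna3 (0.26) and Efnb2 (-0.31) between Thy-1- and CD24medCD49fmed cells. The share of all features without overlap was not counted for that pair. Between Thy-1+ and Thy-1- cells, also with 2 arrays each, 17.3% were higher and 5.22% lower in Thy-1+ without overlap. In the 3 pairs of basal populations, 0 of 15 gene tests were called and 0 had an unadjusted p under 0.05 by limma. Over all features, 0.0682%, 0% and 0.102% were called in these pairs, and 2.52%, 1.57% and 2.18% had an unadjusted p under 0.05. In the 6 pairs of a basal with a luminal population, 18 of 30 gene tests were called, all higher in the basal one. Epha4 and Ephb1 were called in 6 of 6 such pairs, Efnb2 in 5, Efna3 in 1 and Ephb4 in 0. Efnb2 missed in Thy-1- against CD24medCD49f-/low (1.05, adjusted p = 0.121), and Efna3 passed in Thy-1+ against CD24highCD49fmed (1.33, adjusted p = 0.0336). Of all features, 26.3% were called higher in Thy-1+, 21.8% in Thy-1- and 27.4% in CD24medCD49fmed cells than in CD24highCD49fmed cells, where 4, 3 and 3 of the 5 genes were. Against CD24medCD49f-/low cells these shares were 18.9%, 17.4% and 22.0%, and 3, 2 and 3 of the 5 genes were called. The pairs share arrays and are not independent. The largest pairwise differences were those of Ephb1 against CD24highCD49fmed: 3.29 for CD24medCD49fmed (adjusted p = 1.43e-04), 3.28 for Thy-1- (adjusted p = 1.92e-04) and 3.06 for Thy-1+ (adjusted p = 3.97e-04).

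Over the 10 arrays the genes varied together, most of all Efnb2 and Epha4 (Pearson r = 0.912) and least Ephb1 and Ephb4 (r = 0.637). Ephb4 and Efnb2, which encodes the preferred ligand of EphB4, had r = 0.742. The points share the split into basal and luminal arrays. Over the 6 basal arrays alone, r was highest for Efna3 and Efnb2 (0.797), was 0.579 for Efnb2 and Ephb4, and was -0.0813 for Ephb1 and Ephb4. These values are descriptions over few arrays, without a test.

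The named genes whose values over the 10 arrays were most like each member were found among 2555 others. For Ephb1 they were Nkd2, an inhibitor of Wnt signalling, Clmp, an adhesion molecule, and 6330403K07Rik, each with r = 0.99. For Epha4 they were Tead1, the DNA-binding partner of YAP (r = 0.99), Plcg1, a phospholipase acting downstream of receptor tyrosine kinases (r = 0.98), and Reep3 (r = 0.98). For Efnb2 they were Pgm5, a protein of muscle adhesion sites, Ltbp4, which binds latent TGFβ in the matrix, and Lrp4, a receptor of the low-density lipoprotein family, each with r = 0.98. Such likeness was common, since 357 genes had r above 0.9 with Ephb1, 355 with Efnb2 and 301 with Epha4. Efna3 and Ephb4 had fewer, 26 and 56. The genes nearest to Efna3 were Cap2, an actin regulator (r = 0.97), Cdh13, a cadherin held by a lipid anchor (r = 0.96), and the protease Ctsf (r = 0.96). Those nearest to Ephb4 were the phosphatase Ctdsp2 (r = 0.98), the focal adhesion adaptor Pxn (r = 0.96) and Coro1c, an actin-binding protein (r = 0.96).

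Genes that act with ephrins and Eph receptors inside the cell moved both ways between basal and luminal cells. Of 46 such genes listed, 12 were in the table, and 2 were called higher and 6 lower in basal cells, beside 34.7% and 41.3% of all features. Their median difference was -0.74, beside -0.11 over all features. Of 8 kinases, adaptors and phosphatases in the table (of 31 listed), 2 were called higher and 3 were called lower. The focal adhesion adaptor Pxn was higher in basal cells by 1.80 ± 0.45 (SE; adjusted p = 0.00165). Its values ran from -0.39 to 1.77 in basal and from -2.01 to 0.55 in luminal arrays, so the groups overlapped. The phosphatase Ptpn13, which has PDZ domains, was higher by 1.17 ± 0.37 (adjusted p = 0.00889). Grb7, an adaptor that binds activated receptor tyrosine kinases, differed by -1.72 ± 0.38 (adjusted p = 5.46e-04). Its values ran from -1.73 to 0.24 in basal and from 0.45 to 1.55 in luminal arrays, without overlap. Grb10, a related adaptor, and Rasa1, a Ras GTPase-activating protein, were also lower, by -1.13 ± 0.38 and -1.04 ± 0.35 (adjusted p = 0.0121 each).

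The 4 PDZ domain partners and proteases in the table (of 15) had a median difference of -1.23, and 3 were called lower in basal cells. Sdcbp, or syntenin, a PDZ protein that binds ephrin-B tails, had values of -0.78 to -0.19 in basal and -0.09 to 1.41 in luminal arrays and differed by -1.37 ± 0.33 (SE; adjusted p = 0.00121). Afdn, which links nectins at cell junctions to actin, differed by -1.24 ± 0.33 (adjusted p = 0.00272), and Pard6b, a polarity protein, by -1.22 ± 0.36 (adjusted p = 0.00494). Adam10, a protease that cuts ephrins, differed by -0.44 (adjusted p = 0.297). None of the 12 genes was called in the other 3 comparisons, beside 0.205%, 0.0682% and 0.0341% of all features. By limma 2, 0 and 0 had an unadjusted p under 0.05, beside 15.4%, 2.52% and 1.77% of all features. The order is luminal populations, Thy-1+ against Thy-1-, and CD24medCD49fmed against CD24medCD49fhigh cells.

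**Figure D4:**
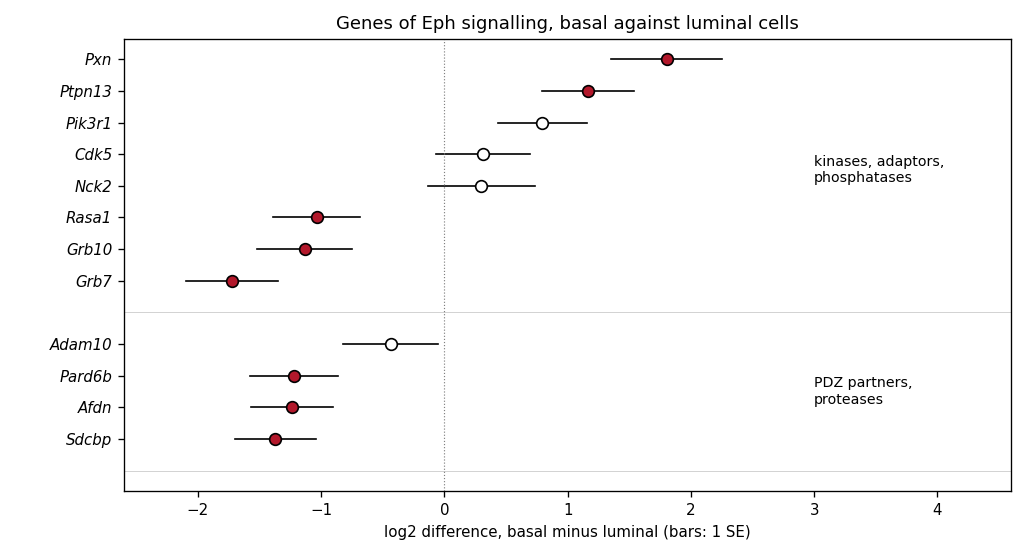
Log2 difference between basal and luminal cells (horizontal axis, with 1 SE) of the 12 Eph signalling genes in the table, by list. Filled points were called at an adjusted p under 0.05. Of the called genes, Pxn and Ptpn13 lie above 0. The PDZ partners Sdcbp, Afdn and Pard6b, the adaptors Grb7 and Grb10, and Rasa1 lie below it.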

How the data were processed

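RNA of 10 samples was measured on Affymetrix mouse genome arrays after 3' labelling in 2 amplification cycles. The deposited values are log2 intensities per probe set, which the authors normalised across arrays, filtered on a minimum level and on variation, and centred on each probe set's mean. The methods name RMA, and the labels name RMA and GCRMA, with no versions. The narrowest probe set spanned 2.00 (log2). Less variable probe sets are not analysed here, and centring removed any reading of abundance or of signal over background. Precision is limited by the number of arrays. The highest correlation between 2 arrays was 0.924.

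The 3663 probe sets were named by identifier through the GEO platform annotation (3291 with 1 symbol, 75 with several, 297 with none), and probe sets of a gene were averaged, giving 2932 features. Population means were fitted jointly to all arrays (limma 3.58.1, lmFit and eBayes, R 4.3.3), with 5 residual degrees of freedom and 16.5 from moderation. Tests were two-sided, with Benjamini-Hochberg adjustment over all features of a comparison. Basal and luminal were the means of 3 and 2 population means. The fit was tested on simulated data. Named were all family genes in the table, up to 4 genes per pathway list by adjusted p, ties kept,, and the 3 genes most correlated with each member. One further pathway list is not reported here. Members and lists were chosen with earlier results of these data known. The alternatives tried were quantile normalisation, setting array medians to 0, a replicate block, robust moderation, probe sets alone, a fit of only the populations compared, a minimum log2 difference of 1, rank products (the test in the methods of the study, p under 0.01) and each array left out.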

Additional observations from a re-analysis of the deposited data

How the results depend on the processing

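Of the 5 genes, 4 were called between basal and luminal cells, beside 2227 of 2932 features. Leaving out a single array changed the call of Efna3 or Ephb4 in some fits, as given above, and these fits are not counted here. Under the other limma settings with all arrays kept, the count was 3 or 4, and 1882 to 2257 features were called. With probe sets tested alone it was 4, beside 2881 of 3663 probe sets. Rank products called 2 (1201 features in all), with Efnb2 and Efna3 lost. It called 1 gene, Ephb1, between the luminal populations (233 features in all), where limma called 0. It treats pairs of arrays as independent. In the other comparisons no alternative called a member. Leaving out single arrays gave basal minus luminal differences of 0.65 to 1.06 for Efna3, 1.24 to 1.60 for Efnb2, 1.63 to 2.23 for Epha4, 2.36 to 2.85 for Ephb1 and 0.45 to 1.13 for Ephb4. All 5 genes kept a positive basal minus luminal difference in every fit and under every scaling. A population left with 1 array was taken to vary like the others. Efna3 also failed a minimum difference of 1. Leaving out Thy-1+ replicate 1 with CD24medCD49f-/low replicate 1 was chosen after seeing the data.

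Signs changed only for differences that were not called. Between the luminal populations, probe sets 1419639_at (Efnb2, 0.99) and 1421929_at (Epha4, -0.15) opposed their gene's value, and leaving out arrays gave -0.37 to 0.016 for Efnb2, -0.11 to 1.09 for Epha4 and -0.96 to 0.40 for Ephb4. Between Thy-1+ and Thy-1- cells, Efna3 was -0.12 after quantile normalisation and Epha4 probe set 1439757_s_at was 0.066, and leaving out arrays gave -0.33 to 0.91 for Efna3, -0.013 to 1.06 for Efnb2, -0.72 to 0.44 for Epha4 and -0.95 to 0.51 for Ephb1. Between CD24medCD49fmed and CD24medCD49fhigh cells, Efnb2 was -0.0059 with array medians set to 0, -0.058 after quantile normalisation, and -0.019 and -0.043 for probe sets 1449548_at and 1449549_at, and Ephb1 was -0.0029 after quantile normalisation. Leaving out arrays there gave -0.21 to 0.32 for Efnb2, -0.050 to 0.53 for Epha4, -0.45 to 0.68 for Ephb1 and -0.47 to 0.72 for Ephb4. The cause of these changes was not tested.

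Whether the replicate numbers pair the samples was not settled. The differences between the arrays numbered 1 and 2 correlated over features at 0.521 between the luminal populations and at 0.300 between Thy-1+ and Thy-1-. Pairs of a basal with a luminal population gave -0.198 to 0.0776. Number 3 occurs only in CD24medCD49fmed, which was not part of these correlations. With the number as a replicate block, 4 members were called between basal and luminal cells (2072 features in all). In the other comparisons 0 members were called. Features called there were 33 between the luminal populations, 9 between Thy-1+ and Thy-1-, and 19 between CD24medCD49fmed and CD24medCD49fhigh cells. Without the block these were 6, 2 and 1. With it, Ephb4 was -0.56 between CD24medCD49fmed and CD24medCD49fhigh cells.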

Other observations

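Netrins and Slits are secreted proteins that, like the ephrins, are known for guiding axons. Of 19 listed ligands and receptors 6 were in the table, of which 4 were called higher and 1 lower in basal cells, beside 34.7% called higher, 41.3% lower and 76.0% either way over all features. Their median difference was 1.08, beside -0.11 over all features. Ntn4, a netrin of basement membranes, was higher by 2.27 ± 0.42 (SE; adjusted p = 1.15e-04), with values of 0.05 to 1.92 in basal and -1.86 to -0.98 in luminal arrays. Slit2 and Slit3, ligands of Robo receptors, were higher by 1.46 ± 0.32 (adjusted p = 6.55e-04) and 1.18 ± 0.34 (adjusted p = 0.00457). For Slit2 the values were 0.03 to 1.23 in basal and -1.03 to -0.71 in luminal arrays. Ntn1, a netrin that binds DCC family receptors, went the other way, with values of -1.24 to 0.05 in basal and 0.39 to 1.36 in luminal arrays and a difference of -1.39 ± 0.34 (adjusted p = 0.00141). None of the 6 was called in the other comparisons. Of all features, 0.205% were called between the luminal populations and 0.0682% between Thy-1+ and Thy-1- cells. Between CD24medCD49fmed and CD24medCD49fhigh cells the share was 0.0341%.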
